A study of Mus musculus with 8 samples.

Results

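The genes described here are the 10 members of the minichromosome maintenance (MCM) family in mouse bone marrow B cells, read in the RNA-seq counts of B cells from ovariectomized mice (OVX) and sham-operated mice (Sham). The members were taken by gene symbol and Ensembl identifier, all 10 were among the 54532 genes listed, and all 10 passed the filter on low counts that left 15305 genes to be tested. The family was chosen by the unadjusted p-value of Mcmdc2 in OVX against Sham, which was the third lowest of all genes tested, and the replication helicase genes were taken for contrast. The difference of Mcmdc2 between the groups is therefore given as a description, with no test.

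Each group held 3 libraries, labelled as replicates 1, 2 and 3, of bone marrow B cells. The study removed the ovaries as a surgical model of menopause and isolated B cells from marrow with magnetic beads, so each library pools the B cell stages of the marrow and was made from a fraction, not from single sorted stages. The labels give no genotype, age, time after surgery or strain for these 6 libraries and do not say whether each came from a separate mouse, so the p-values measure the spread between these libraries only. The ChIP libraries of the series were not analysed here. Values of single libraries are given in the order of replicates 1, 2 and 3.

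MCM proteins unwind DNA. Mcm2, Mcm3, Mcm4, Mcm5, Mcm6 and Mcm7 form the ring-shaped helicase that is loaded at replication origins before S phase and travels with the replication fork, and their transcripts are abundant in dividing cells such as large pre-B cells. Mcm10 helps to start the loaded helicase, and Mcm8 and Mcm9 form a separate complex that acts in homologous recombination. Mcmdc2, named for its MCM domain, is known for its part in the repair of DNA breaks in meiosis.

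In the mouse assembly GRCm38, which is mm10 as named in the submitters' processing notes, the RefSeq table places Mcmdc2 at chr1:9906157-9943606 and, on the same chromosome, Mcm3 at chr1:20802966-20820312 and Mcm6 at chr1:128331575-128359705. The others are Mcm10 at chr2:4990724-5012791, Mcm8 at chr2:132816137-132844197, Mcm7 at chr5:138164583-138172111, Mcm2 at chr6:88883474-88898780, Mcm5 at chr8:75109468-75128439, Mcm9 at chr10:53536315-53630006 and Mcm4 at chr16:15623897-15637400.

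The promoters of the members were searched for the word by which E2F factors, the regulators of S phase genes, are known to bind. The search covered 250 bases before to 50 bases after each annotated start (RefSeq, GRCm38.p6), on both strands, for TTTCCCGC, TTTCGCGC, TTTGCCGC and TTTGGCGC. A promoter was matched for 8 of the 10 members, not for Mcm4 and Mcmdc2. At least 1 word was found for 5 of the 8, namely Mcm3, Mcm5, Mcm6, Mcm7 and Mcm8, and for none of Mcm2, Mcm9 and Mcm10. Of all 27025 genes with a promoter in the table, 704 (2.6%) had a word. In gene lists described further on, a word was found for 5 of 9 origin licensing genes and 8 of 23 fork and polymerase genes. It was found for 2 of 7 helicase activation genes, 2 of 7 homologous recombination genes and 6 of 31 meiosis genes. Of the mitosis genes 1 of 10 had one, and of the nucleotide supply genes 0 of 5. Counted by window, 5 of 9 windows of the members held one, beside 744 of all 32851 (2.26%). The stretches below are shown because they hold these words, which stand in capitals. They run 5′ to 3′ on the strand of the gene, and a word may lie on either strand. A match is a run of letters and not a measured binding site. Any link between these words and the levels or covariation of the genes, given further on, was not tested.

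Mcm5, chr8:75109339-75109467, + strand: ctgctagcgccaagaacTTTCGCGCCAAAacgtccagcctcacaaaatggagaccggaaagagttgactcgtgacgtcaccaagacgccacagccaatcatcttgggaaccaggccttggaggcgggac
Mcm6, chr1:128359706-128359825, - strand: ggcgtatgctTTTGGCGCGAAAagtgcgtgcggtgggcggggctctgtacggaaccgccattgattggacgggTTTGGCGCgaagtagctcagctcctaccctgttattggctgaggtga
Mcm3, chr1:20820263-20820292, - strand: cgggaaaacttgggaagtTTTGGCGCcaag
Mcm7, chr5:138172030-138172059, - strand: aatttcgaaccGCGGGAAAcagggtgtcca
Mcm7, chr5:138171849-138171878, - strand: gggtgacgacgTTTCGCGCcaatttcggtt
Mcm8, chr2:132816161-132816190, + strand: gcagaagcgcgtcatagacGCGCCAAAaaa

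In Mcm5 the capitals are 2 overlapping words, TTTCGCGC and, on the other strand, TTTGGCGC. They begin 153 and 149 bases before the start on which the searched window, chr8:75109259-75109558, was placed. For Mcm5 that start lies inside the gene body as placed above, not at its first base. Mcm6 had 3 words, of which the first 2 overlap in the same way and the third begins 47 bases before the start. Mcm3 had 2 words, both after its start. The letters CCAAT, on either strand, were in all 9 windows of the 8 members and in 37.4% of all windows. In the other gene lists searched they were in 37.5% (helicase activation) to 100% (mitosis) of the windows.

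The replicative helicase genes were at like levels in both groups. Levels are in CPM, the unit for counts scaled to a common library total, here with edgeR's TMM factors, and they are compared between libraries only, since transcript lengths were not at hand. Summed over Mcm2 to Mcm7, the level was 1694, 1332 and 1648 CPM in Sham and 1679, 1593 and 1424 CPM in OVX. The mean was 1558 ± 197 CPM in Sham and 1565 ± 130 CPM in OVX (SD, n = 3 per group). Sham replicate 2 was the lowest of the 6 libraries and OVX replicate 3 the next, and the groups overlapped.

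Mcm2, whose protein also carries histones at the fork, had 262, 205 and 252 CPM in Sham and 257, 249 and 218 CPM in OVX. Mcm5, which with Mcm2 forms the gate through which DNA enters the ring, had 293, 233 and 287 CPM in Sham and 286, 276 and 250 CPM in OVX. Mcm3, which sits beside Mcm5 in the ring, had 268, 215 and 264 CPM in Sham and 280, 258 and 221 CPM in OVX. In each of these genes the Sham replicate 2 library was the lowest of all 6.

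Mcm4, Mcm6 and Mcm7 together form the core that has helicase activity on its own. Mcm7 had 364, 267 and 335 CPM in Sham and 338, 330 and 303 CPM in OVX, and Mcm6 had 307, 243 and 308 CPM in Sham and 313, 295 and 265 CPM in OVX. Mcm4 had 201, 169 and 202 CPM in Sham and 205, 185 and 167 CPM in OVX. Mcm4 was the only one of the 6 genes whose lowest library was OVX replicate 3, though by less than 2 CPM from Sham replicate 2.

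The fitted log2 fold changes of OVX against Sham for Mcm2 to Mcm7 ran from -0.0359 for Mcm4 to 0.0259 for Mcm6, with a median of 0.0078, beside a median of -0.0081 over all genes tested. Their standard errors were between 0.105 and 0.119 on the log2 scale. The 95% intervals of the 6 genes together spanned 0.822-fold to 1.23-fold. Differences inside a gene's interval are compatible with its counts, and these bounds are not a limit of detection. No direction can be read from the median, which was below 0 in 6 and above 0 in 9 of the 15 alternative fits, and was -0.0663 with scaling on 12 general B cell genes and -0.0988 without Sham replicate 2. A gene was called where the quasi-likelihood test of edgeR gave a Benjamini-Hochberg adjusted p-value below 0.05 together with at least a 1.6-fold change. None of the 6 genes was called (adjusted p from 0.933 to 0.996). In that test 0 of 15305 genes were called (0%) and the lowest adjusted p-value, shared by many genes, was 0.811. Without adjustment 574 genes (3.75%) fell below 0.05, with 225 of them (1.47%) higher in OVX and 349 (2.28%) lower. With scaling on the B cell genes these were 64 higher and 468 lower. DESeq2 and limma-voom also called 0 genes.

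The 6 transcripts kept nearly the same proportions in every library. Of the reads of Mcm2 to Mcm7, Mcm2 took 15.3% to 15.6% over the 6 libraries, Mcm5 17.1% to 17.6% and Mcm6 18.1% to 18.7%. The share was 15.5% to 16.7% for Mcm3, 11.6% to 12.7% for Mcm4 and 20.1% to 21.5% for Mcm7. These shares depend on transcript length and so do not give the ratio of molecules between genes, but their change between libraries does not depend on the scaling of libraries.

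**Figure D1:**
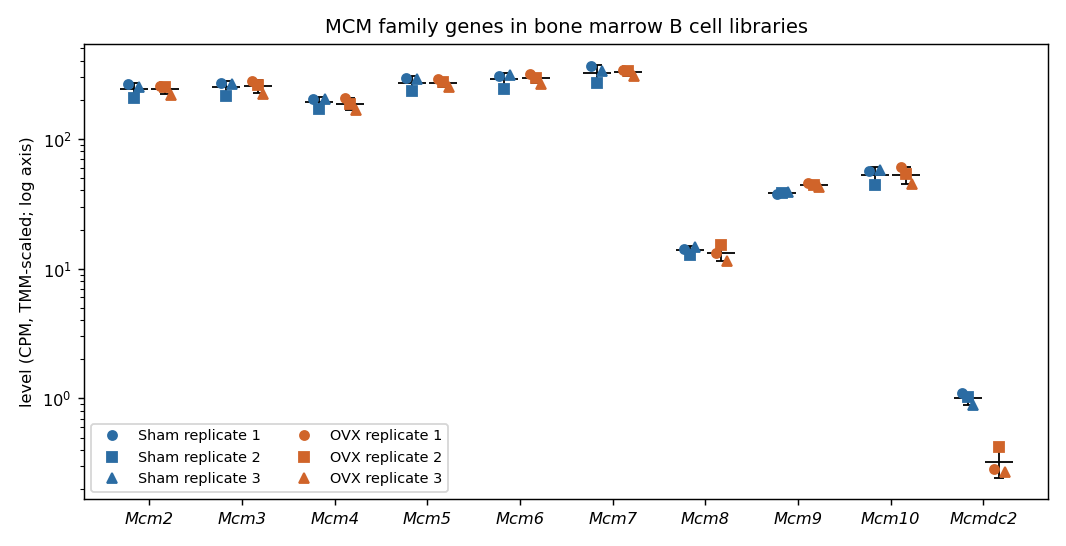
Level in CPM (TMM-scaled, log axis) of the 10 MCM family genes in the 3 Sham (blue) and 3 OVX (orange) libraries, with symbols by replicate number and black bars for the mean and SD. Sham and OVX points overlap for Mcm2 to Mcm8 and Mcm10, whereas the OVX points of Mcmdc2 all lie below its Sham points and those of Mcm9 all lie slightly above.

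Mcmdc2 (ENSMUSG00000046101) had 26, 29 and 22 reads in the Sham libraries and 7, 12 and 9 reads in the OVX libraries. The level of the gene was 1.00 ± 0.107 CPM in Sham and 0.327 ± 0.0837 CPM in OVX (SD, n = 3 per group). Every OVX library lay below every Sham library. This difference, by which the family was chosen, was -1.60 on the log2 scale (standard error 0.345).

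The counts of Mcmdc2 were small in every library. The filter asked for about 0.38 CPM in 3 libraries, which Mcmdc2 met in 3 Sham libraries and in 1 OVX library. It thus passed through the group where it was higher. In the fit without a filter the log2 fold change was -1.61.

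Set against the replicative helicase, Mcmdc2 had 6.47, 7.66 and 5.37 reads per 10000 reads of Mcm2 to Mcm7 in Sham and 1.70, 2.66 and 1.91 in OVX. The 95% Poisson intervals, which cover counting error only, had lower bounds of 4.23, 5.13 and 3.36 in Sham and upper bounds of 3.50, 4.64 and 3.63 in OVX. The interval of Sham replicate 3 overlapped that of every OVX library. That of Sham replicate 1 overlapped only that of OVX replicate 2, and that of Sham replicate 2 lay above all OVX intervals. As the contrast had chosen Mcmdc2, these intervals describe the counts and are no test of the groups. The means were 6.50 ± 1.15 in Sham and 2.09 ± 0.504 in OVX (SD, n = 3 per group), a ratio of 3.11. This ratio needs no scaling between libraries. The highest OVX library was at 0.495 of the lowest Sham library. The difference between Mcmdc2 and the replicative genes was not tested, since the contrast had chosen Mcmdc2.

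**Figure D2:**
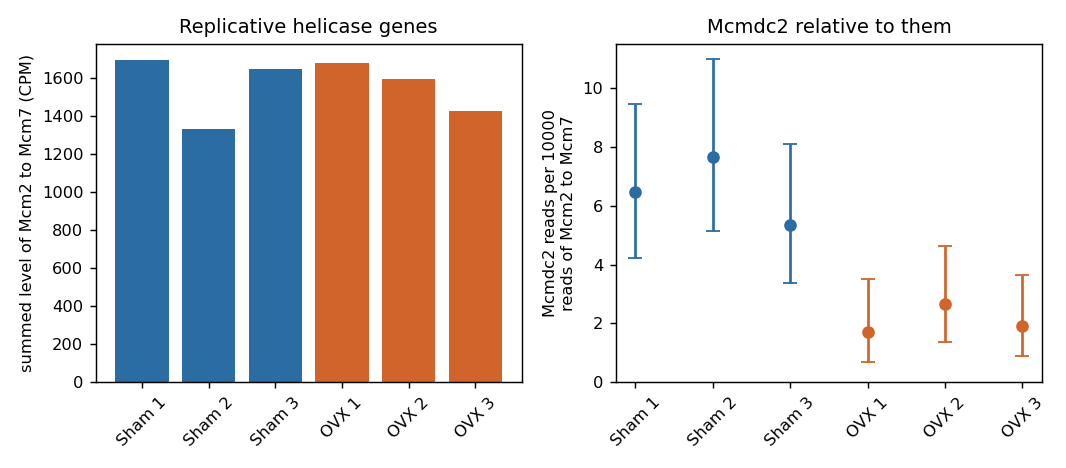
Left, summed level of Mcm2 to Mcm7 in CPM per library. Right, Mcmdc2 reads per 10000 reads of Mcm2 to Mcm7 per library with 95% Poisson intervals of the Mcmdc2 count. The bars run from 1332 to 1694 CPM with Sham (blue) and OVX (orange) intermixed, while the Sham points on the right lie between 5.37 and 7.66 and the OVX points between 1.70 and 2.66.

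The gene body of Mcmdc2 overlaps that of the long noncoding RNA Snhg6 by 1582 bases at one end, with the small nucleolar RNA Snord87 inside the overlap. Snhg6 had 390, 497 and 469 reads in Sham and 390, 529 and 627 reads in OVX, many more than Mcmdc2, and a difference of 0.02 on the log2 scale (standard error 0.121, not called). Snord87 had 2, 7 and 7 reads in Sham and 3, 1 and 1 in OVX and was not tested. The sources used here do not say whether strand was used in counting, so how reads in the overlap were assigned is not known.

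The nearest gene on the other side is Sgk3, a kinase related to the serum and glucocorticoid-regulated kinases, 3586 bases away. It had 41.4, 44.1 and 45.9 CPM in Sham and 37.3, 39.1 and 40.3 CPM in OVX, with every OVX library below every Sham library and a log2 fold change of -0.17 (95% interval -0.35 to 0.01, not called). Of all genes tested, 4.12% had all OVX libraries below all Sham libraries. Tcf24, 16556 bases beyond Mcmdc2, had at most 6 reads in a library.

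Mcm9 was the only other member whose groups did not overlap. It had 37.8, 38.4 and 38.6 CPM in Sham and 45.3, 43.97 and 42.6 CPM in OVX, with means of 38.3 ± 0.411 and 43.9 ± 1.35 CPM (SD, n = 3 per group). On the log2 scale OVX was higher by 0.20 (standard error 0.0693, 95% interval 0.04 to 0.36), and the gene was not called (adjusted p = 0.811, edgeR's quasi-likelihood test). With scaling on the B cell genes the value was 0.12. Per 1000 reads of Mcm2 to Mcm7, Mcm9 had 22.3, 28.8 and 23.4 reads in Sham and 26.95, 27.6 and 29.9 in OVX, and on this scale the groups overlapped. Of the 10 genes, 1 was thus wholly above Sham and 1 wholly below, beside 4.33% and 4.12% of all genes tested (8.44% in either direction), and since this contrast had chosen the family nothing further is read from these counts.

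The gene body of Mcm9 holds that of Asf1a, a histone chaperone of the replication fork, over its full 12265 bases. Asf1a had 55.4, 34.9 and 45.5 CPM in Sham and 50.2, 56.9 and 52.9 CPM in OVX, so that its lowest library, Sham replicate 2, was not the lowest of Mcm9. Whether reads of the shared stretch entered one gene or the other is not known.

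Mcm8, the partner of Mcm9, had 14.0, 12.7 and 14.8 CPM in Sham and 13.3, 15.2 and 11.3 CPM in OVX, and the groups overlapped. Its log2 fold change was -0.06 (95% interval -0.41 to 0.29, not called). Trmt6, a tRNA methyltransferase subunit that lies 82 bases from Mcm8, was wholly lower in OVX, at 45.7, 45.6 and 47.2 CPM in Sham and 39.6, 38.6 and 38.2 CPM in OVX (log2 difference -0.25, 95% interval -0.41 to -0.09, not called). Dars, the aspartyl-tRNA synthetase gene 4001 bases from Mcm6, was also wholly lower, with a log2 difference of -0.08 (95% interval -0.23 to 0.07, not called). Trmt6 and Dars are named because their groups separated, as they did wholly lower in 4.12% of all genes tested. Apart from these and Sgk3, the groups overlapped in every neighbour of a member that was tested.

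Mcm10 had 56.9, 43.8 and 57.6 CPM in Sham and 60.7, 53.1 and 44.9 CPM in OVX. It followed the replicative genes, with 31.5 to 36.1 reads per 1000 reads of Mcm2 to Mcm7 over the 6 libraries, and its log2 fold change was 0.0033 (95% interval -0.34 to 0.34, not called).

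**Figure D3:**
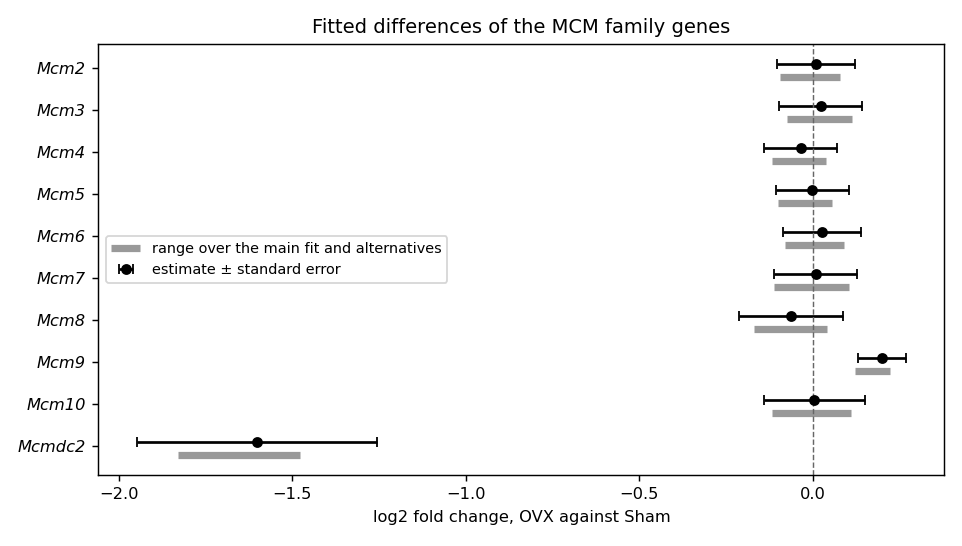
Log2 fold change of OVX against Sham for each MCM family gene (points, with standard errors) and the range over the main fit and its 15 alternatives (grey bars). Mcm2 to Mcm8 and Mcm10 have bars on both sides of 0, Mcm9 runs from 0.12 to 0.22 and Mcmdc2 from -1.83 to -1.48.

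Across the 6 libraries the replicative genes varied together. Pearson's r of log2 CPM over the 6 libraries ran from 0.84, for Mcm4 with Mcm7, to 0.99, for Mcm2 with Mcm5, over the 15 pairs of Mcm2 to Mcm7, with a median of 0.96. After the group means had been taken out the range was 0.86 to 0.99. The points share depth, scaling and cell makeup, and these values are a description.

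Mcm10 varied with the replicative genes, with r from 0.87 to 0.99 in the 6 pairs, and Mcm8 did so less closely, with r from 0.56 to 0.70. With Mcm2 to Mcm7, Mcm9 had r from 0.02 to 0.23, and from 0.16 to 0.62 once the group means were taken out, when Mcm8 had 0.59 to 0.73. Mcmdc2 had r from -0.10 to 0.14 with them, and from -0.01 to 0.19 without the group means. With Mcm8, Mcmdc2 had an r of 0.38, and of 0.59 without the group means. Mcmdc2 and Mcm9 had an r of -0.94 with each other, which was -0.03 once the group means were taken out, so that the negative value rests on the difference between the groups.

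**Figure D4:**
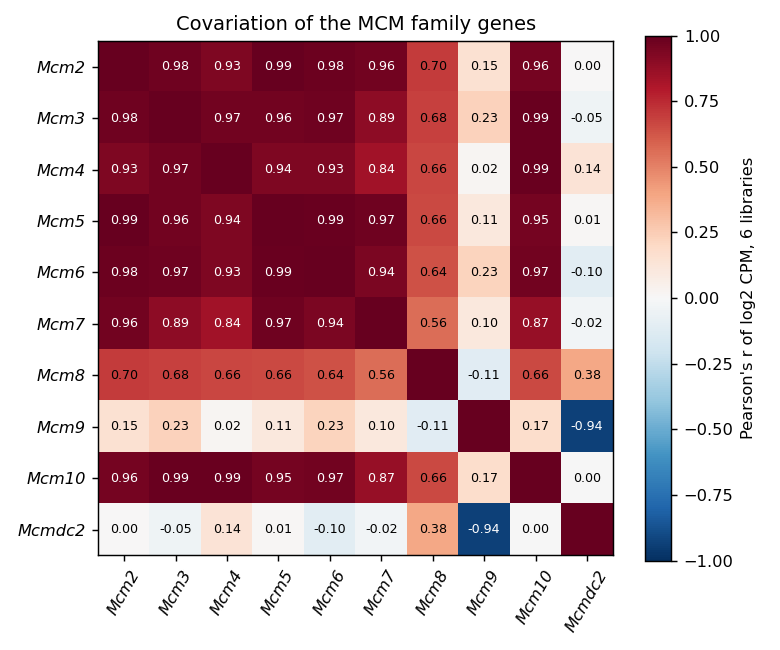
Pearson's r of log2 CPM over the 6 libraries for each pair of MCM family genes (colour and printed value). Mcm2 to Mcm7 and Mcm10 form a block with r of at least 0.84, and Mcm8 joins it with r of 0.56 to 0.70. With the block, Mcm9 and Mcmdc2 are lower, at most 0.23 (for Mcm9 up to 0.62 once group means are taken out, which is not plotted). Mcm8 with Mcmdc2 is at 0.38.

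Of the other 15299 genes tested, the 5 with the highest r with the mean of the scaled Mcm2 to Mcm7 levels included Gm15246 (0.9958), Pspc1 (0.99), Rfc5 (0.99) and Ssr1 (0.98), and Mcm10 came in place 13. Gm15246 had few reads, 34, 22 and 33 in Sham and 36, 36 and 31 in OVX, so its r is open to counting error. Rfc5 is a subunit of the clamp loader of the replication fork. An r over 0.8 was reached by 5.13% of these genes, by 14 of 27 fork and polymerase genes, 6 of 12 helicase activation genes, 4 of 6 nucleotide supply genes, 8 of 12 mitosis genes, 4 of 10 origin licensing genes, 5 of 13 E2F and Rb genes and 3 of 11 homologous recombination genes. The 5 genes most like Mcmdc2 were Ica1l (0.98), Gm43457 (0.98), C130013H08Rik (0.97), Lrpprc (0.97) and Ap5m1 (0.97), none of them in a replication list. All of them had lower mean levels in OVX, as follows from likeness to a gene that separates the groups. For Ica1l the counts were 18, 18 and 18 reads in Sham and 7, 10 and 9 reads in OVX. An r over 0.8 with Mcmdc2 was reached by 1.74% of the other genes tested, by 2 of 10 origin licensing genes and by 1 of 27 fork and polymerase genes. It was reached by 0 of the helicase activation, nucleotide supply, E2F and Rb, mitosis and homologous recombination genes.

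The other genes of DNA replication were described by lists. All 10 origin licensing genes, which place the MCM ring on DNA, were tested and 0 were called. Fitted values were above 0 for 7 and below 0 for 3, and their median was 0.04, from -0.19 for Orc1 to 0.12 for Orc5. The libraries of the groups did not overlap for Orc5, higher in OVX, and Orc3, lower in OVX, both subunits of the origin recognition complex, beside 4.33% of all genes wholly higher and 4.12% wholly lower. With scaling on the B cell genes 3 of 10 were above 0 (median -0.0373), and without Sham replicate 2 it was 4 of 10 (median -0.0181).

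All 12 genes that turn the loaded ring into an active helicase were tested. Of them 8 were higher and 4 lower, with a median of 0.03, from -0.12 for Recql4 to 0.21 for Gins2. With scaling on the B cell genes 5 of 12 were higher (median -0.0413), and without Sham replicate 2 it was 4 of 12 (median -0.0192). Gins2, part of the GINS complex that joins Cdc45 and the MCM ring, had 34.5, 21.5 and 28.6 CPM in Sham and 29.95, 33.3 and 34.6 CPM in OVX, and its groups overlapped.

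Of the 27 fork and polymerase genes, all tested, 20 were higher and 7 lower, with a median of 0.04, from -0.19 for Tipin, a fork protection factor, to 0.13 for Pold4, a subunit of polymerase delta. This split turned with scaling on the B cell genes, where 8 of 27 were higher (median -0.0334), and without Sham replicate 2, where 6 of 27 were higher (median -0.0391). For 1 of the 27, beside 8.44% of all genes tested, the groups did not overlap. This was Pole2, a subunit of polymerase epsilon, at 18.8, 18.5 and 18.4 CPM in Sham and 18.03, 17.2 and 16.4 CPM in OVX. The 6 genes of nucleotide supply had a median of 0.05, from -0.13 for Tyms, thymidylate synthase, to 0.18 for Rrm2, the regulated subunit of ribonucleotide reductase. That median was -0.0252 with scaling on the B cell genes, -0.0515 with Sham replicate 2 left out and -0.0081 with OVX replicate 1 left out. The 13 genes of E2F factors, their partners and the Rb family had a median of 0.09, from -0.09 for E2f5 to 0.28 for E2f2. E2f3 was wholly higher in OVX, at 40.2, 37.7 and 39.0 CPM in Sham and 40.9, 42.9 and 40.3 CPM in OVX. The median of this list was 0.0097 with scaling on the B cell genes, -0.0299 with Sham replicate 2 left out and 0.002 with OVX replicate 1 left out. In these lists 0 genes were called, and 0 were below 0.05 before adjustment. Of all genes tested, 48.2% had a log2 fold change above 0.

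The 12 mitosis genes had a median of 0.13, with all 12 above 0, from 0.09 for Bub1 to 0.25 for Aurka, and 0 were called. Without Sham replicate 2 the median was -0.0262 and 4 of the 12 were above 0.

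Of the homologous recombination genes, among which Mcm8 and Mcm9 act, 11 of 12 were matched and tested, and 3 were higher and 8 lower, with a median of -0.03. Without OVX replicate 3, 8 of 11 were higher (median 0.0728), and without OVX replicate 1 the median was -0.125. Rad51b was lowest at -0.22, with 5.65, 3.13 and 4.14 CPM in Sham and 3.09, 3.91 and 4.08 CPM in OVX, and Brca1 was highest at 0.11. None was called and in none did the groups separate.

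Since Mcmdc2 is known from meiosis, 40 other meiosis genes were listed. Of these 19 passed the filter on low counts, and 6 of those that did not had no read in any library, Sycp1, Terb2 and Spata22 among them. Of the 19 tested, 9 were higher and 10 lower, with a median of -0.02, and 0 were called. Tex15 had the lowest log2 fold change, -1.32 (standard error 0.913), with 14, 26 and 85 reads in Sham and 37, 5 and 11 reads in OVX. Cntd1 had the highest, 0.45 (standard error 0.399), and both overlapped between the groups. Mlh3, a mismatch repair factor used in crossing over, was the only one with all OVX libraries below all Sham libraries, at -0.30 (95% interval -0.66 to 0.06), which is 1 of 19 beside 4.12% of all genes tested.

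**Figure D5:**
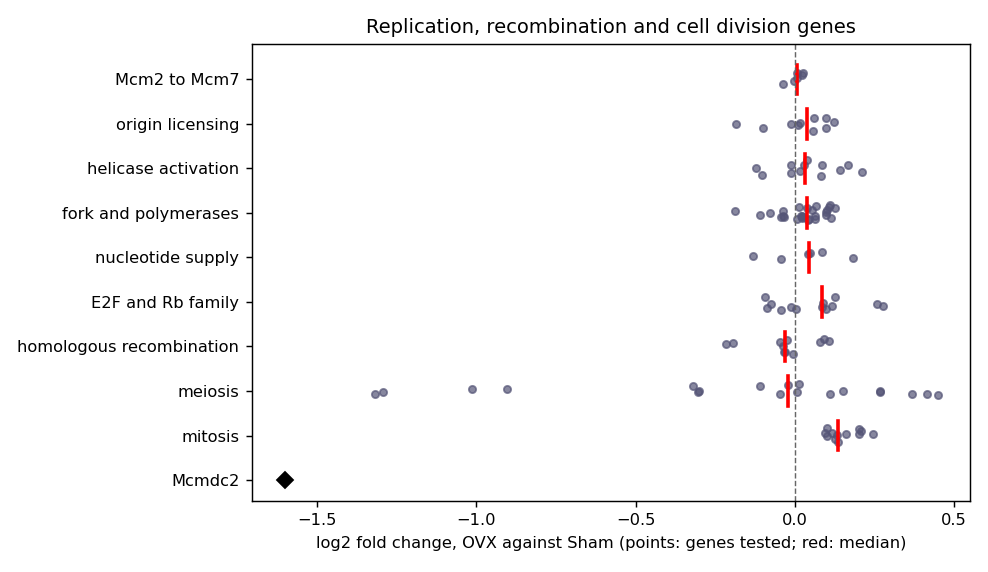
Log2 fold change of OVX against Sham for each gene tested in 9 lists (points) with the list's median (red) and Mcmdc2 alone (black diamond). The points of the replication lists lie between -0.19 and 0.28, those of the meiosis list spread from -1.32 to 0.45, and Mcmdc2 is at -1.60.

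The 8 general B lineage genes took 0.727% to 0.821% of the counts in every library. In Sham replicate 3 the 10 neutrophil genes took more than these, 0.895% against 0.727%. The libraries differed in B cell stage and in transcripts of other cells. The 9 genes of pro-B and pre-B cells, 7 of them with log2 fold changes above 0, took 0.283%, 0.157% and 0.189% of the counts in Sham and 0.229%, 0.285% and 0.301% in OVX. Rag1 alone gave 16486 of the 43695 counts of this list in Sham replicate 2 and 24238 of 46843 in Sham replicate 3. Within the list, Il7r, Kit, Rag1 and Sox4 had their lowest level in Sham replicate 2. Dntt, Igll1, Vpreb1, Vpreb2 and Erg had theirs in Sham replicate 3. The 8 mature B cell genes, 7 of them below 0, took 0.323% in Sham replicate 2, where the replicative genes were lowest, and 0.135% to 0.178% in the others. OVX replicate 3, with the next lowest level of the replicative genes, had 0.156% for the mature genes and the highest share of the 6 libraries, 0.301%, for the pro-B and pre-B genes. There Rag1 gave 47985 of the 99640 counts of the pro-B and pre-B list. Whether the share of that list follows the share of dividing cells was not tested. In bulk samples a smaller share of dividing cells and less RNA per dividing cell cannot be told apart.

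The 10 neutrophil genes took 0.895% of the counts in Sham replicate 3, 0.107% in OVX replicate 2 and 0.116% to 0.392% in the other libraries, and all 10 had log2 fold changes below 0. The 5 genes of neutrophil precursors, which also divide, took 0.00467% to 0.0657%, and the 9 erythroblast genes 0.0182% to 0.0521%, and all of both lists were below 0. By library the share of the neutrophil genes was 0.244%, 0.327% and 0.895% in Sham and 0.392%, 0.107% and 0.116% in OVX. The summed level of Mcm2 to Mcm7 was 1694, 1332 and 1648 CPM in Sham and 1679, 1593 and 1424 CPM in OVX. That of Mcmdc2 was 1.10, 1.02 and 0.884 CPM in Sham and 0.285, 0.423 and 0.272 CPM in OVX. Genes of other cell types were also counted in every library. Those of monocytes and macrophages took 0.0758%, 0.164% and 0.0657% in Sham and 0.0474%, 0.0450% and 0.129% in OVX (9 of 9 below 0). The sums were 0.0936% to 0.140% for plasma cells (3 of 6 below 0) and 0.000532% to 0.00232% for T and NK cells (6 of 7 below 0). For plasmacytoid dendritic cells the sum was 0.0196% to 0.0244% (4 of 5 below 0). Single genes weigh on some sums, as Irf4 gave 12495 of 24837 plasma cell counts and Tcf4 3732 of 4675 plasmacytoid counts in Sham replicate 1. Within them, Jchain had 112, 640 and 515 CPM in Sham and 256.5, 105 and 71.2 CPM in OVX. Siglech had 2.7, 8.4 and 14.8 CPM in Sham and 5.8, 0.92 and 1.1 CPM in OVX. The part of any of these cell types, neutrophils among them, in the values of the MCM genes was not tested.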

How the data were processed

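The 3 Sham and 3 OVX RNA-seq libraries were grouped by their labels. As deposited, the table holds unnormalized read counts for each Ensembl gene. The submitters' processing notes name CASAVA, Bowtie 0.12.2 and mm10, without roles, and the counting tool, annotation and use of strand are not given in the sources used here. The totals were 23838775 to 33136701 counts per library, and every pair of libraries differed by more than sampling noise. Symbols were found for 54409 of 54532 identifiers.

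Counts were fitted in R 4.3.3 with edgeR 4.0.16 (filterByExpr by group, TMM, quasi-likelihood test, Benjamini-Hochberg over 15305 genes). The standard error is the log2 fold change divided by the square root of F. Log2 CPM for correlations used a prior count of 2. The tests were tried on simulated counts. The members and lists were chosen with earlier results of these data known. Named are the members, the genes at the ends of each list, list genes below 0.05 before adjustment, the 5 genes most alike in pattern (1 is not reported here) and neighbours of members, of which the text gives those of Mcmdc2, Asf1a and those with separated groups. In the lists, genes with separated groups and 3 meiosis genes without reads were added after their values were seen. Alternatives were DESeq2 1.42.0, limma-voom (limma 3.58.1), other scalings, other filters, each library left out and the replicate number as a block.
Levels per length, which had been planned, were not computed, as no transcript or protein lengths were used here.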

Additional observations from a re-analysis of the deposited data

How the results depend on the processing

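No gene was called in any of the 15 alternative fits, and the lowest adjusted p-value among them was 0.273, in the edgeR fit that left out Sham replicate 1. Before adjustment 574 genes were below 0.05 in the reported fit, against 1269 without a filter on low counts and 206 with the replicate block. Leaving out one library gave 2698 (Sham replicate 1), 360 (Sham replicate 2), 286 (Sham replicate 3), 988 (OVX replicate 1), 233 (OVX replicate 2) and 411 (OVX replicate 3). The cause was not tested. The log2 fold change of Mcmdc2 stayed between -1.83 and -1.48 in all 15, and was -1.61 with the replicate block. The replicate numbers share no origin that the labels give, and libraries of the same number had correlations of -0.41, -0.189 and -0.279 between their deviations from group means, so the block was not used for the reported values. The median of Mcm2 to Mcm7 was between -0.0988 and 0.0741 with single libraries left out, and was 0.015 with the block. The median correlation among Mcm2 to Mcm7 was 0.957 to 0.968 over 9 alternatives. Leaving out OVX replicate 3 moved Mcm8 from -0.063 to 0.0397. The depth limits Mcmdc2, with 77 reads in all Sham libraries and 28 in all OVX libraries.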
